A study of Homo sapiens with 10 samples.

Results

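Aldehyde dehydrogenase transcripts were followed in the ovarian cancer cell line PEO1 and in 4 clones selected from it for resistance to veliparib, an inhibitor of PARP enzymes. The genes were ALDH1A1, ALDH1A2, ALDH1A3, ALDH1B1, ALDH2, ALDH3A1, ALDH3A2, ALDH3B1, ALDH3B2 and ALDH9A1, found by their exact symbols in the deposited table, which gave 10 of 25370 genes. Of the 16490 genes with enough reads to be tested, 8 were among these 10, and ALDH1A1 and ALDH1A2 had too few reads. PEO1 is an established line of BRCA2-deficient high grade serous ovarian carcinoma, labelled as epithelial cells of the ovary. Parental cells carried the labels WT and Parental, and no drug is named for them. The clones ABTr1, ABTr2, ABTr3 and ABTr4 were labelled veliparib resistant, having been held in 40 µM veliparib over 6 months and taken off it 4 to 5 days ahead of RNA isolation. Each clone line descends from PEO1 and is a clone, so a clone and its history of selection cannot be told apart. Polyadenylated RNA from 2 libraries per group, numbered replicate 1 and replicate 2, was sequenced, and the labels do not say how the cultures were separated, so p-values measure only the spread between these libraries.

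Aldehyde dehydrogenases use NAD or NADP to oxidise reactive aldehydes to acids. The ALDH1A enzymes make retinoic acid from retinaldehyde, ALDH2 and ALDH1B1 are mitochondrial and clear acetaldehyde and other small aldehydes, the ALDH3 enzymes act on longer lipid-derived and aromatic aldehydes, and ALDH9A1 serves carnitine synthesis. In ovarian cancer, high aldehyde dehydrogenase activity, measured with a fluorescent substrate, is widely used to sort cells with stem-like properties.

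Total counts ran from 20640602 to 55488566 per library. The summed level of the 6 epithelial markers EPCAM, CDH1, KRT7, KRT8, KRT18 and KRT19 was 8948 to 13684 CPM (counts scaled to library size, with TMM factors) in parental libraries and 2546 to 3414 CPM in clone libraries. Keratins made up most of the sum, KRT7 averaging 3531 CPM in PEO1 against 887 CPM over the clones. CDH1 averaged 252 against 1.88 CPM and EPCAM 543 against 110 CPM. PAX8, a transcription factor of the Müllerian lineage, averaged 124 CPM in PEO1 libraries against 137 CPM over the clones. Of the other serous carcinoma markers, MUC16 averaged 43.5 against 0.470 CPM and WT1 8.26 against 1.24 CPM, and SOX17 had 0 reads in all libraries. Of the 6 fibroblast markers, 0 reads were counted in any library for DCN, LUM and COL3A1, and the summed level of the list was 9.62 to 11.2 CPM in parental and 6.38 to 27.5 CPM in clone libraries. The 5 leukocyte markers summed to 39.6 to 52.5 CPM in parental and 72 to 145 CPM in clone libraries, mostly from CD68, and the defining gene PTPRC stayed at or below 0.236 CPM. The 4 endothelial markers summed to 15.5 to 62.3 CPM in parental and 2.01 to 16.3 CPM in clone libraries, where CDH5 averaged 38.1 CPM in PEO1 and 3.04 CPM over the clones, while PECAM1, VWF and KDR averaged more in the clones and at most 1.04 CPM. The 4 hepatocyte markers, of a cell type rich in several of these enzymes, summed to at most 0.677 CPM, with TTR at 0 reads in all libraries. The lower epithelial sum accompanied every difference between parental cells and clones below, and its part in them was not tested. In bulk RNA, fewer cells of a kind and less RNA per cell cannot be told apart.

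ALDH1A3 was the dominant aldehyde dehydrogenase transcript in parental cells and in all clones. Compared per length as RPKM (CPM divided by exon length in kilobases), ALDH1A3 averaged 325 RPKM over the 10 libraries. ALDH9A1 followed at 42.5, ALDH1B1 at 21.0, ALDH3A2 at 16, ALDH2 at 6.64 and ALDH3B1 at 5.25 RPKM. ALDH3B2 averaged 1.03 RPKM, all but 1 of its reads coming from parental libraries. The remaining 3 genes were near the floor of detection, with ALDH3A1 at 0.108, ALDH1A2 at 0.0324 and ALDH1A1 at 0.0147 RPKM. The gap between ALDH1A3 and every other member exceeded the spread between libraries, since the lowest ALDH1A3 library (184 RPKM) lay above the highest ALDH9A1 library (60.3 RPKM). Further down the order, neighbours overlapped: ALDH9A1 ran from 25 to 60.3, ALDH1B1 from 12.7 to 40.9 and ALDH3A2 from 7.25 to 21.6 RPKM.

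**Figure D1:**
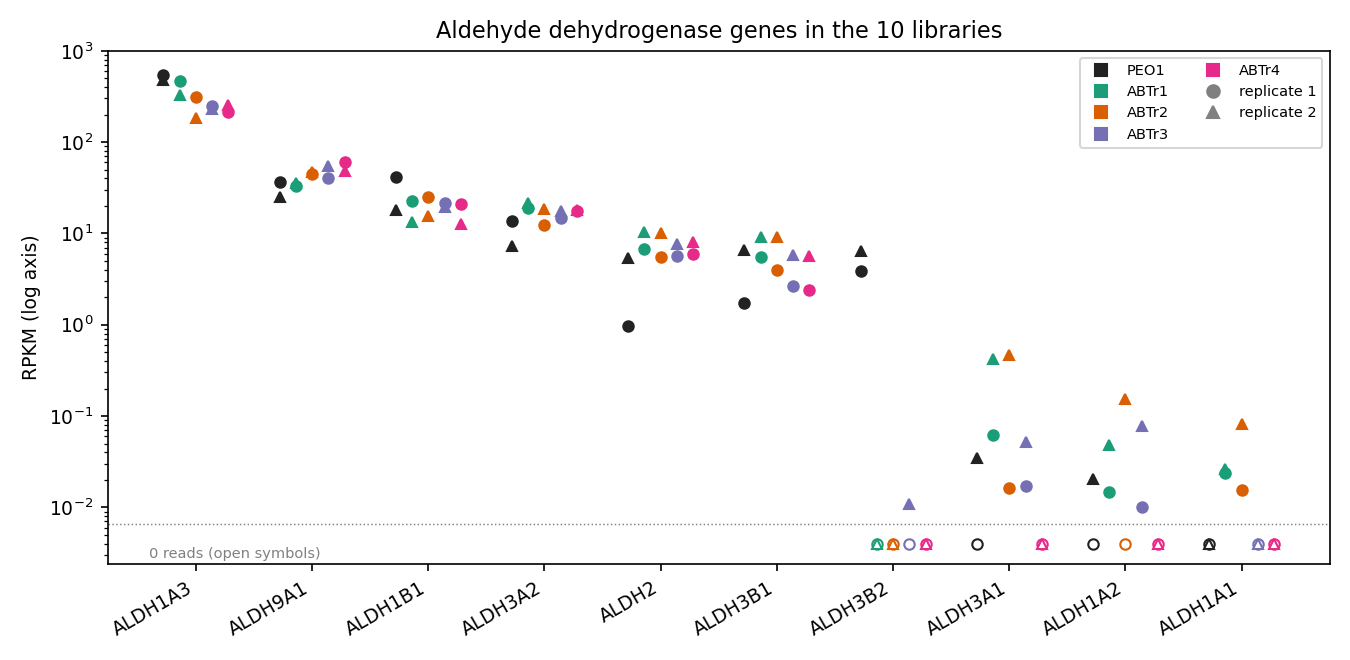
Level of each of the 10 aldehyde dehydrogenase genes in every library, in RPKM on a log axis, with colour for the group, circles for replicate 1, triangles for replicate 2 and open symbols for libraries with 0 reads. ALDH1A3 lies above all other members in every library, and ALDH3B2 is filled in at several RPKM only for the parental cells.

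The 3 retinaldehyde dehydrogenases lay far apart. ALDH1A1 had 0 reads in both parental libraries, 2 and 2 reads in ABTr1, 2 and 4 reads in ABTr2, and 0 reads in the 4 libraries of ABTr3 and ABTr4. For the parental group 0 reads allow a level of up to 0.0453 CPM (3 counts over the group). ALDH1A1, the member most often named as a stem cell marker, was therefore not detected in parental cells at this depth, and its few reads in ABTr1 and ABTr2 put its pooled level there just above that limit. ALDH1A2, the main enzyme of retinoic acid synthesis in the embryo, had 0 and 2 reads in parental cells, 2 and 6 in ABTr1, 0 and 12 in ABTr2, 2 and 10 in ABTr3, and 0 and 0 in ABTr4. The ratio of its pooled level in the clones to that in parental cells was 3.43, with a 95% counting interval of 0.875 to 29.5 that includes no difference. By clone the ratio was 3.90 in ABTr1 (0.778 to 37.7), 5.24 in ABTr2 (1.17 to 48.2) and 4.61 in ABTr3 (1.03 to 42.4). The intervals of ABTr2 and ABTr3 thus lay just above no difference. These intervals cover counting error only, and they take reads as independent, although every count of ALDH1A1 and ALDH1A2 above 0 was even and 57.6% of all counts from 1 to 10 in the table were even.

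The 250 bases before the transcription start of these 3 genes (RefSeq, GRCh38.p14, written along the gene's own strand) are shown because their transcripts differ so widely in level in these cells. Capitals mark the CCAAT box (CCAAT) and the GC box (GGGCGG) on either strand. The TATA core TATAAA was searched as well and was in none of the 3.

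ALDH1A3 promoter, chr15:100879581-100879830, plus strand: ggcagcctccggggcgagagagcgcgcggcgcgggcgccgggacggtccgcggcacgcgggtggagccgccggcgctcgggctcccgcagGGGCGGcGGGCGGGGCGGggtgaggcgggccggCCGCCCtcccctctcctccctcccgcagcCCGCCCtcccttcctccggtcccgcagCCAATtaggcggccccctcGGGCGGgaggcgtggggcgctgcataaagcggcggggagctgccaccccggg
ALDH1A2 promoter, first start, chr15:58065712-58065961, minus strand: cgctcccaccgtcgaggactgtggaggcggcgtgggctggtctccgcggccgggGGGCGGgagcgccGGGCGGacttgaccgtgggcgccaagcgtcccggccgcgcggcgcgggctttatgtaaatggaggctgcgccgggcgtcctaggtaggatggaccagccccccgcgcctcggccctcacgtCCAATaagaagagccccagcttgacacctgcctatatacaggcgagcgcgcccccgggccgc
ALDH1A1 promoter, chr9:72953054-72953303, minus strand: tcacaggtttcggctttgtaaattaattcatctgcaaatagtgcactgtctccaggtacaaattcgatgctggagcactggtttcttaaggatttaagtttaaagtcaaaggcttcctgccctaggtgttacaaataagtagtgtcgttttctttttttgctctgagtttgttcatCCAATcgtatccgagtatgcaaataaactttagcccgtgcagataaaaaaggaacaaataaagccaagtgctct

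The ALDH1A3 window held 38 CpG dinucleotides, more than 96.7% of the 35116 promoter windows of this length in the same table, and 82.4% of its bases were G or C. The ALDH1A2 window held 33 CpG dinucleotides, more than 91.9% of windows, and the ALDH1A1 window held 6, more than 38.1% of windows, with 38.4% G or C. The GC box occurred 6 times before ALDH1A3, overlapping copies included, 2 times before ALDH1A2 and not before ALDH1A1. Each of the 3 windows held 1 CCAAT box. Over all windows, 42.6% held the GC box, 32% the CCAAT box and 10.7% the TATA core, so these matches are common and describe the sequence only. CpG-rich windows stood before ALDH1A3, the most abundant member, and before the first start of the barely detected ALDH1A2. The window of a second ALDH1A2 start, not shown, held 1 CpG dinucleotide, more than 6.06% of windows. It had 41.6% G or C and neither a GC box nor a CCAAT box. The table matched 7 of the 10 members and had no entry for ALDH2, ALDH3A1 and ALDH3B2.

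The comparison of clones with parental cells asked which family members differ in transcript level between the resistant lines and their parent line. ALDH1A3 and ALDH3B2 fell in the mean of the 4 clones, and no member rose. These 2 of 8 tested members (25%) compare with 16% of all tested genes that passed at an edgeR adjusted p under 0.05, so the share is not far from that of the whole table. By direction, 8.79% of all tested genes passed as lower and 7.17% as higher. The median log2 fold change of the 8 members was 0.45, against 0.02 over all tested genes. An unadjusted edgeR p under 0.05 was seen for 4 members, a count given without the share of all tested genes at that threshold. ALDH3B2 met the expression filter through its parental reads alone and ALDH3A1 through replicate 2 of ABTr1 and ABTr2, so counts over the 8 are no count over the family. Deviations from the group means were shared between libraries of a replicate number, and with that number as a block in the fit 5 of 8 members passed, against 34.6% of all tested genes. The 3 added by the block were ALDH2 and ALDH3A2, higher in the clones, and ALDH1B1, lower in the clones. The parental libraries also decided calls: without PEO1 replicate 1 ALDH3A2 passed as higher (edgeR adjusted p = 0.0413), without PEO1 replicate 2 ALDH2 did (0.0228), and ALDH1A3 lost its call in both cases. In libraries that did not overlap at all between parental cells and clones stood 3 of the 8 members, ALDH1A3, ALDH2 and ALDH3B2, or 37.5%, against 27% of all tested genes.

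ALDH1A3 (hg19 chromosome 15, 101420009 to 101456830, plus strand, 13 exon blocks) makes retinoic acid and fell in the mean of the clones. It was at 1888 and 1651 CPM in parental PEO1, 1626 and 1158 in ABTr1, 1077 and 645 in ABTr2, 874 and 815 in ABTr3, and 746 and 880 in ABTr4. Every clone library lay below both parental libraries, with replicate 1 of ABTr1 just under the lower of them. The group means and SDs were 1770 ± 168 CPM over the 2 parental libraries and 977 ± 277 CPM over the 4 clones, which edgeR put at 1.86-fold lower, -0.89 on the log2 scale (SE 0.24, adjusted p = 0.0375). The replicate block gave -0.90 (edgeR adjusted p = 0.00349). Leaving out any 1 library kept the log2 fold change between -1.0 and -0.81, but the adjusted p rose to as much as 0.153 and missed the threshold in 8 of 10 cases, the exceptions being the libraries of ABTr2.

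The clones fell into an order of ALDH1A3 in which ABTr1 stood nearest to parental cells. The mean level was 1392 ± 331 CPM in ABTr1, 861 ± 306 in ABTr2, 844 ± 41.9 in ABTr3 and 813 ± 94.5 in ABTr4 (SD, n = 2 libraries each). ABTr2, ABTr3 and ABTr4 overlapped with each other, and the libraries of ABTr1 lay above all of theirs. Against parental cells the log2 fold changes were -0.35 (SE 0.32, edgeR adjusted p = 0.527) in ABTr1, -1.04 (SE 0.32, adjusted p = 0.0975) in ABTr2, -1.07 (SE 0.32, adjusted p = 0.0877) in ABTr3 and -1.12 (SE 0.33, adjusted p = 0.0651) in ABTr4. With edgeR no single clone passed without the block, and with the replicate block ABTr2 (adjusted p = 0.0116), ABTr3 (0.0108) and ABTr4 (0.00799) did, while ABTr1 (0.279) did not. DESeq2 likewise called ALDH1A3 lower in ABTr2 (adjusted p = 0.0156), ABTr3 (0.0109) and ABTr4 (0.00657). The difference of ABTr1 from the other 3 clones, taken as a mean, was 0.73 on the log2 scale (SE 0.25) with an unadjusted edgeR p of 0.0184. The adjusted p was 0.5, and 0.068 with the block, so ABTr1 was not shown to differ from the other clones.

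ALDH1A3 held most of the family's transcripts in every library, and a smaller share in each clone library. Of the summed RPKM of the 10 genes, ALDH1A3 made up 84.7% and 87.3% in the parental libraries, 84.3% and 78.5% in ABTr1, 77.0% and 64.6% in ABTr2, 74.7% and 68.9% in ABTr3, and 66.5% and 73.2% in ABTr4. All clone libraries were below both parental libraries, again with replicate 1 of ABTr1 closest. Reads of the 10 genes together were 0.197% and 0.157% of all counts in the parental libraries and 0.0933% to 0.204% in the clone libraries, so the summed share overlapped between the groups through ABTr1.

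**Figure D2:**
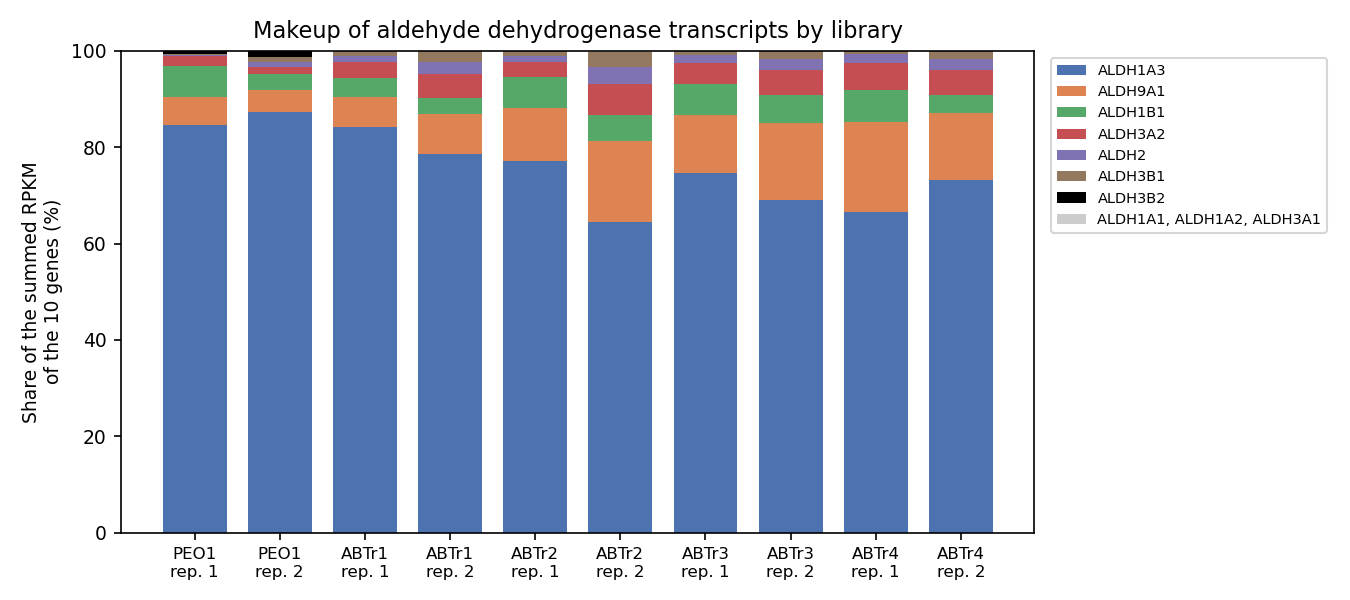
Share of each gene in the summed RPKM of the 10 aldehyde dehydrogenase genes, in percent, with a bar for each library. ALDH1A3 (blue) makes up 84.7% and 87.3% in the parental libraries and between 64.6% and 84.3% in the clone libraries, where ALDH9A1 and ALDH3A2 take larger parts.

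ALDH3B2 (hg19 chromosome 11, 67429633 to 67448685, minus strand, 11 exon blocks) fell to at most 1 read per library in the clones. It is a close paralog of ALDH3B1, which lies nearby on the same chromosome. Parental libraries held 416 and 449 reads (10.3 and 17.4 CPM), ABTr1, ABTr2 and ABTr4 held 0 reads in both libraries, and ABTr3 held 0 and 1 read. The groups were fully separated. Set against 3 counts in the clone's pooled libraries, the pooled parental level was 296-fold that of ABTr1, 330-fold that of ABTr2 and 344-fold that of ABTr4. The 95% counting intervals of these ratios began at 240 in ABTr1, 268 in ABTr2 and 279 in ABTr4. The ratio of parental cells to ABTr3 was 1125 with a 95% counting interval of 201 to 44498. These intervals leave out the spread between libraries. ALDH3B2 was the only member that passed in each clone, with edgeR adjusted p of 0.00821 in ABTr1, 0.00862 in ABTr2, 0.00855 in ABTr3 and 0.00602 in ABTr4, and 4.78e-04 in the mean. In comparison, 4.18% of tested genes passed in each clone with the same sign. ALDH3B2 met the expression filter through its parental reads alone, so its calls as lower are not independent of that filter. In the mean it passed in all 14 alternatives run, and in ABTr3 the call was lost without either ABTr3 library. Of the 50-base windows of the ALDH3B2 transcript in GENCODE, 1.35% also occur in ALDH3B1, and how the authors' counting treated reads from such stretches is not given in the sources used here.

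ALDH3B1 (hg19 chromosome 11, 67776017 to 67796749, plus strand), which oxidises lipid-derived aldehydes at membranes, did not pass where its paralog did. It was at 5.11 and 19.5 CPM in parental PEO1, 16.4 and 27.6 in ABTr1, 12 and 27.1 in ABTr2, 7.85 and 17.2 in ABTr3, and 7.14 and 16.7 in ABTr4. Replicate 2 was the higher library in all 5 groups, and parental and clone libraries overlapped. The log2 fold change from edgeR in the mean was 0.37 (SE 0.58, adjusted p = 0.716), with -0.32 when PEO1 replicate 1 was left out and 1.61 when PEO1 replicate 2 was. With the replicate block ALDH3B1 passed in ABTr1 (edgeR log2 fold change 1.06, SE 0.28, adjusted p = 0.0181), and the values were 0.81 in ABTr2 (adjusted p = 0.0646), 0.17 in ABTr3 (0.694) and 0.08 in ABTr4 (0.857).

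ALDH3A2 (hg19 chromosome 17, 19552064 to 19580908, plus strand) encodes the fatty aldehyde dehydrogenase of the endoplasmic reticulum, the enzyme missing in Sjögren-Larsson syndrome. It was at 51.7 and 27.7 CPM in parental PEO1, 71.9 and 82.7 in ABTr1, 47.5 and 70.1 in ABTr2, 56.4 and 67.4 in ABTr3, and 67.0 and 69.2 in ABTr4. Of the 8 clone libraries 7 lay above both parental libraries and replicate 1 of ABTr2 did not. The log2 fold change in the mean was 0.73 (SE 0.27), with an edgeR adjusted p of 0.105 without and 0.0455 with the replicate block. The parental libraries differed in their weight: leaving out PEO1 replicate 1 gave 1.24 and leaving out PEO1 replicate 2 gave 0.34. In ABTr1 it was 0.96 (SE 0.33, edgeR adjusted p = 0.105 without and 0.0369 with the block).

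ALDH3A1, a cytosolic enzyme known from the cornea and the stomach, was barely transcribed. It had 0 and 2 reads in parental cells, 5 and 31 in ABTr1, 2 and 22 in ABTr2, 2 and 4 in ABTr3, and 0 and 0 in ABTr4. Most of its reads came from replicate 2 of ABTr1 and ABTr2, which also carried it past the expression filter. The pooled level in ABTr1 was 17.6 times that in parental cells (95% counting interval 4.52 to 150) and in ABTr2 10.5 times (2.60 to 91.5). In ABTr3 it was 2.31 times, with an interval of 0.412 to 23.4 that includes no difference. All these intervals leave out the spread between libraries. ALDH3A1 did not pass in ABTr1 or ABTr2 (edgeR adjusted p = 0.236 and 0.305), and with the replicate block it passed in ABTr1 (0.0307) but not in ABTr2 (0.0597). ABTr4 against the mean of the other 3 clones gave an unadjusted edgeR p of 0.0411 and an adjusted p of 0.927.

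ALDH2 (hg19 chromosome 12, 112204691 to 112247789, plus strand), the mitochondrial enzyme that removes acetaldehyde made from ethanol, was higher in every clone library than in either parental library. It was at 2.01 and 11.1 CPM in parental cells, 13.9 and 21.2 in ABTr1, 11.4 and 21.0 in ABTr2, 11.7 and 15.9 in ABTr3, and 12.3 and 16.4 in ABTr4. The lowest clone library was only just above the higher parental library, and replicate 2 exceeded replicate 1 in all 5 groups. Within a replicate number the separation was wider, with clone libraries at 5.66 to 6.91 times the parental library of replicate 1 and at 1.43 to 1.91 times that of replicate 2. The log2 fold change from edgeR in the mean was 1.24 (SE 0.58, adjusted p = 0.186) and did not pass, while the replicate block gave 1.48 (SE 0.38, edgeR adjusted p = 0.0133), which did. With the block ALDH2 passed in ABTr1 (adjusted p = 0.018), ABTr2 (0.0336) and ABTr4 (0.0382) and not in ABTr3 (0.0514). In GENCODE, 36.9% of the 50-base windows of ALDH2 are shared with AC002996.1, an overlapping locus that is no row of the counts table. The size depends on the parental library used, at 0.45 on the log2 scale without PEO1 replicate 1 and 2.92 when PEO1 replicate 2 was left out.

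ALDH1B1 (hg19 chromosome 9, 38392661 to 38398662, plus strand), the other mitochondrial member, was highest in a parental library. It was at 126 and 55.6 CPM in parental cells, 68.7 and 41.0 in ABTr1, 77.8 and 47.3 in ABTr2, 66.5 and 59.2 in ABTr3, and 65.2 and 38.9 in ABTr4. Replicate 1 was the higher library in all 5 groups, and the clone libraries lay on both sides of the lower parental library. Within a replicate number 7 of 8 clone libraries lay below their parental library, at 0.519 to 0.619 times in replicate 1 and 0.700 to 1.06 times in replicate 2. The log2 fold change from edgeR in the mean was -0.65 (SE 0.35, adjusted p = 0.244). The replicate block gave -0.58 (edgeR adjusted p = 0.0279), and it was 0.039 without PEO1 replicate 1. With the block ABTr4 was the clone in which ALDH1B1 passed (edgeR adjusted p = 0.0362), with ABTr1 at 0.0501, ABTr2 at 0.166 and ABTr3 at 0.232.

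ALDH9A1 (hg19 chromosome 1, 165631449 to 165667900, minus strand) oxidises trimethylaminobutyraldehyde on the way to carnitine and gamma-aminobutyraldehyde on a side route to GABA. It was at 92.3 and 62.6 CPM in parental cells, 83.5 and 88.9 in ABTr1, 111 and 119 in ABTr2, 100.1 and 136 in ABTr3, and 151 and 119 in ABTr4. All libraries of ABTr2, ABTr3 and ABTr4 were above both parental libraries, and those of ABTr1 lay between them. The log2 fold change from edgeR in the mean was 0.53 (SE 0.22, adjusted p = 0.143 without and 0.0569 with the replicate block). Among single clones the value was 0.15 in ABTr1, 0.57 in ABTr2, 0.61 in ABTr3 and 0.80 in ABTr4, and ABTr4 passed with the block (edgeR adjusted p = 0.103 without and 0.032 with it).

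**Figure D3:**
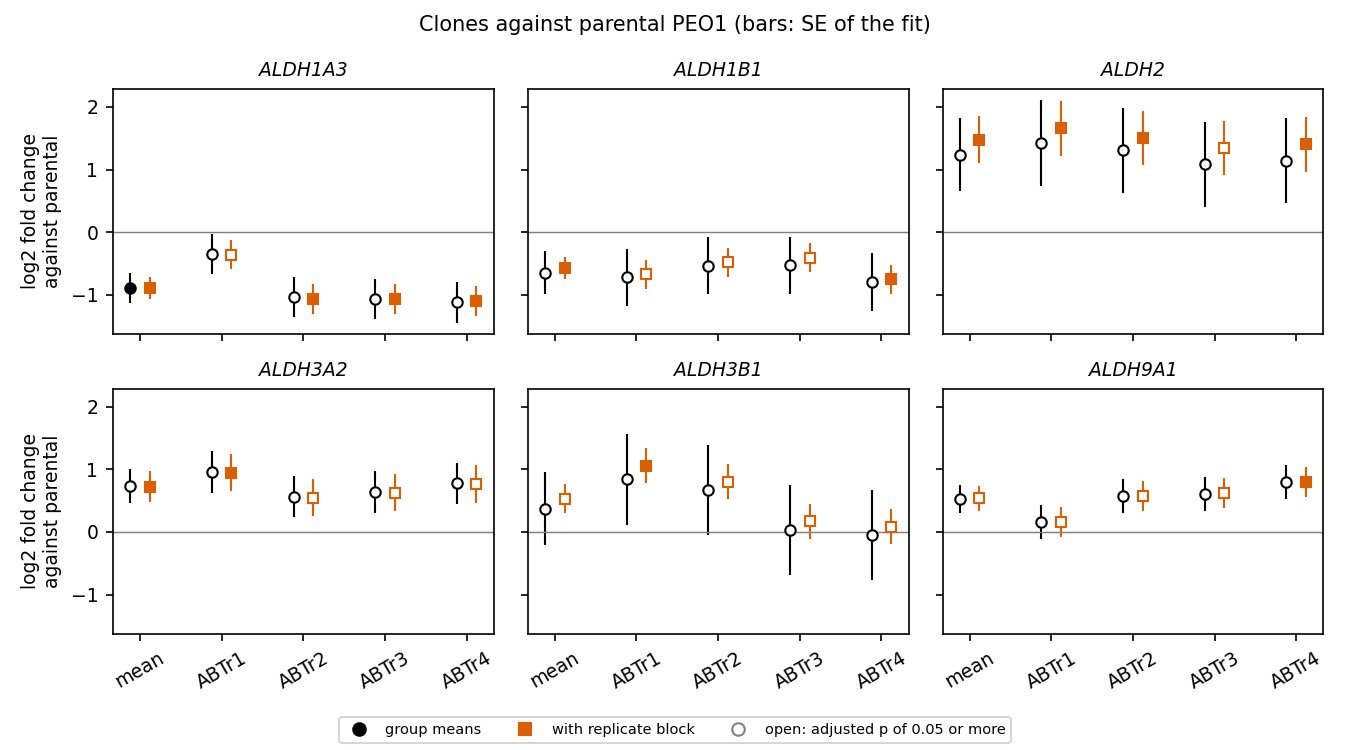
Log2 fold change against parental PEO1 for 6 members, in the mean of the 4 clones and in each clone, from the fit of group means (black circles) and the fit with the replicate block (orange squares). Bars are the SE of the fit and open symbols have an edgeR adjusted p of 0.05 or more, so that ALDH1A3 in the mean of the clones is the single filled circle, while the block fills further squares of ALDH1A3, ALDH1B1, ALDH2, ALDH3A2, ALDH3B1 and ALDH9A1.

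Counted by clone, 1 of 8 tested members (12.5%) passed in each, ALDH3B2 in every case, and no other member passed in any clone. ALDH3B2 was in the tested set through its parental reads alone, so a call as lower was close to fixed. The 12.5% is therefore no measure of the family. The share of all tested genes passing was 9.77% in ABTr1, 6.11% in ABTr2, 7.37% in ABTr3 and 9.71% in ABTr4. With the replicate block 5 members passed in ABTr1 (30.1% of all tested genes), 3 in ABTr2 (22.1%), 2 in ABTr3 (22.6%) and 5 in ABTr4 (27%). In ABTr1 these were ALDH2, ALDH3A1, ALDH3A2 and ALDH3B1, higher, and ALDH3B2, lower. ALDH3A1 was in the tested set only through replicate 2 of ABTr1 and ABTr2. In ABTr4 they were ALDH2 and ALDH9A1, higher, and ALDH1A3, ALDH1B1 and ALDH3B2, lower. The 4 comparisons share the parental libraries, so their likeness is not independent.

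The question whether the clones differ from each other in these genes was tested directly. No member passed in the test of any difference among the 4 clones (0 of 8, against 0.00606% of all tested genes), where 0 members had an unadjusted edgeR p under 0.05, DESeq2 also called 0, and the block gave 0, with 0.843% of all genes. Testing a clone against the average of the remaining 3 likewise gave 0 members with edgeR, limma-voom and DESeq2. The share of all tested genes was 0.0121% for ABTr1 and 0% for each of the other clones, and with the block, where again 0 members passed, it was 2.97% for ABTr1, 0% for ABTr2, 0.206% for ABTr3 and 0.546% for ABTr4. At an unadjusted edgeR p under 0.05 stood 2 members in ABTr1, ALDH1A3 and ALDH3A1, 1 in ABTr4, ALDH3A1, and 0 in ABTr2 and in ABTr3. With the block the counts at an unadjusted edgeR p under 0.05 were 4 in ABTr1 (ALDH1A3, ALDH3A1, ALDH3B1 and ALDH9A1), 1 in ABTr2 (ALDH3A1), 0 in ABTr3, 2 in ABTr4 (ALDH3A1 and ALDH3B1) and 3 in the test among the clones (ALDH1A3, ALDH3A1 and ALDH3B1). The share of all tested genes at the unadjusted threshold is not given here, so the unadjusted counts have no background to be read against. At 2 libraries per clone the fit gives SEs of 0.22 to 0.61 in these contrasts for the 6 members other than ALDH3A1 and ALDH3B2. Log2 differences of that size would not be detectable, and larger ones can be missed as well. ALDH1A3 in ABTr1, at 0.73 (SE 0.25), had an edgeR adjusted p of 0.5.

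Beyond the clones, the replicate number itself went with several members, a comparison chosen after the values were seen. Replicate 2 was higher than replicate 1 in 5 of 5 groups for ALDH3B1 (log2 difference 1.24, SE 0.18, edgeR adjusted p = 0.0015) and for ALDH2 (0.92, SE 0.27, adjusted p = 0.0303). ALDH1B1 was lower in replicate 2 in 5 of 5 groups (-0.71, SE 0.15, edgeR adjusted p = 0.00635). ALDH3A1 was higher in 4 of 5 (edgeR adjusted p = 0.0112), but replicate 2 of ABTr1 and ABTr2 also carried it past the expression filter. Its call therefore says nothing independent about the replicate number. The 4 of 8 members, a count that includes ALDH3A1, stand beside 30.3% of all tested genes. ALDH1A3 (-0.26, adjusted p = 0.222), ALDH3A2 (0.04, 0.892), ALDH3B2 (0.84, 0.297) and ALDH9A1 (-0.05, 0.82) did not pass. Replicate 1 was the deeper library in each group, and the part of depth in these values was not tested.

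**Figure D4:**
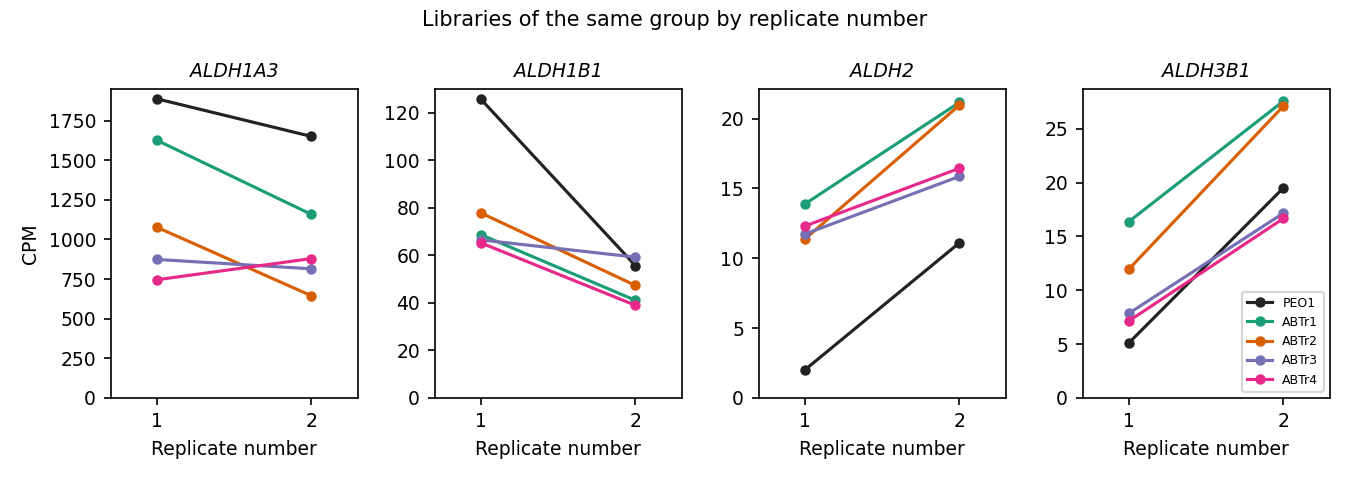
CPM of ALDH1A3, ALDH1B1, ALDH2 and ALDH3B1 in replicate 1 and replicate 2, with a line joining the libraries of each group. ALDH2 and ALDH3B1 are higher and ALDH1B1 is lower in replicate 2 in all 5 groups, while the parental line of ALDH1A3 lies above every clone in both.

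Genes whose levels over the 10 libraries ran most like the 3 most abundant members were found by the smallest root-mean-square difference of log2 CPM after centring, among 11315 genes with at least 5 CPM. For ALDH1A3 they were MAGI3 (0.135), SVIL (0.203) and ARHGAP35 (0.213), against an SD of ALDH1A3 itself of 0.507. For ALDH9A1 they were ZNF202 (0.110), TMEM70 (0.113) and CDC123 (0.121), and for ALDH1B1 MAPKAPK3 (0.160) and FASTKD5 (0.178). None of these genes passed in the mean of the clones, the smallest edgeR adjusted p being 0.0593, for MAGI3.

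The other aldehyde dehydrogenase genes, 9 in number, were all tested, and 2 fell in the mean of the clones while 0 rose (22.2%, against 16% of all tested genes in either direction and 8.79% as lower). ALDH7A1, an enzyme of lysine breakdown, was at 101 and 119 CPM in PEO1 libraries against 56.6 to 83.2 CPM in clone libraries (edgeR log2 fold change -0.66, SE 0.17, adjusted p = 0.0324). ALDH16A1, a member that lacks the catalytic cysteine, was at 29.9 and 16.8 CPM in PEO1 libraries against 8.02 to 15.1 CPM in clone libraries (edgeR log2 fold change -0.97, SE 0.27, adjusted p = 0.0411). For both genes no clone library reached a parental library, while 27% of all tested genes showed no overlap in either direction. With the replicate block ALDH6A1, a mitochondrial enzyme of valine breakdown, also passed (edgeR log2 fold change -0.81, adjusted p = 0.00599), which made 3 of 9 against 34.6% of all tested genes. The call of ALDH7A1 was lost in 9 of 10 cases when 1 library was left out, all but ABTr2 replicate 2, with an adjusted p of up to 0.188. That of ALDH16A1 was lost in 8 of 10 cases, all but PEO1 replicate 2 and ABTr2 replicate 1, and in limma-voom, with a log2 fold change of -0.51 without PEO1 replicate 1. The median log2 fold change of the 9 genes was -0.34.

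Of 29 listed retinoid genes around the ALDH1A enzymes 23 were tested, and 2 rose and 2 fell. This share (17.4%) is near the 16% of all tested genes, and the median log2 fold change was 0.05. The block gave 6 higher and 5 lower, against 34.6% of all tested genes. Among the retinoid carriers and degrading enzymes, STRA6, the cell surface receptor that takes up retinol, was at 0.273 and 1.16 CPM in PEO1 libraries against 1.48 to 27.8 CPM in clone libraries (edgeR log2 fold change 3.85, SE 1.09, adjusted p = 0.0457). With 11 and 30 parental reads, STRA6 met the expression filter only with its clone libraries. Its call as higher, and its part in the 2 that rose, are not independent of that filter. CYP26B1, which breaks down retinoic acid, was at 11.5 and 5.11 CPM in PEO1 libraries against 19.5 to 52.0 CPM in clone libraries (edgeR log2 fold change 2.10, SE 0.37, adjusted p = 0.00734). Neither STRA6 nor CYP26B1 overlapped between the groups, which held for 27% of all tested genes. RARG, a retinoic acid receptor, fell from 104 ± 30.7 CPM to 35.9 ± 6.53 CPM (edgeR log2 fold change -1.56, SE 0.33, adjusted p = 0.0152). RDH13, a mitochondrial retinol dehydrogenase, fell from 19.6 ± 5.44 to 7.76 ± 1.53 CPM (edgeR log2 fold change -1.35, SE 0.34, adjusted p = 0.0311; SD, n = 2 libraries and 4 clones). RARG lost its call without PEO1 replicate 2 (edgeR log2 fold change -1.24, adjusted p = 0.14). RDH13 lost it without either parental library, either ABTr1 library or ABTr4 replicate 2 (-1.05 without PEO1 replicate 1), and STRA6 lost it in 8 of 14 alternatives, among them limma-voom and the loss of either parental library (5.16 without PEO1 replicate 2). RARB, a receptor gene induced by retinoic acid, passed with the block and not without it. The edgeR log2 fold change was 2.73 (adjusted p = 0.128) without the block and 2.93 (adjusted p = 1.06e-04) with it. RARB was chosen after its values were seen.

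**Figure D5:**
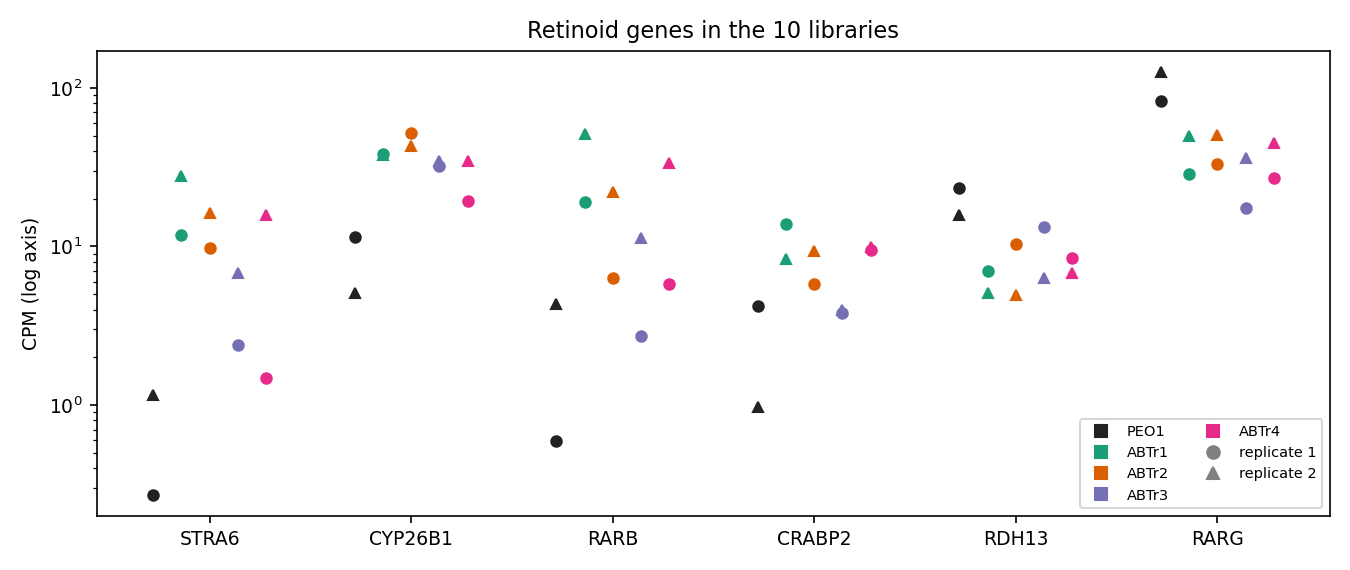
CPM on a log axis of 6 retinoid genes in the 10 libraries, with colour for the group, circles for replicate 1 and triangles for replicate 2. STRA6 and CYP26B1 are higher and RARG and RDH13 lower in every clone library than in both parental libraries, and RARB and CRABP2 passed with the replicate block and not without it. Separation of all libraries was seen in 27% of all tested genes.

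Enzymes that make or use the substrates of the family included genes with large changes. Of 10 genes for amine oxidases and carnitine synthesis 9 were tested, 1 rose and 1 fell (22.2%, against 16% of all tested genes). The replicate block gave 1 higher and 3 lower, AOC1 (edgeR adjusted p = 0.0211) and AOC2 (0.0449) being added. AOC1 met the expression filter only through its parental libraries, so its call as lower is not independent of that filter. MAOA, the mitochondrial monoamine oxidase that releases aldehydes from serotonin and noradrenaline, was at 0.347 and 0.155 CPM in PEO1 libraries against 10.5 to 60.8 CPM in clone libraries (edgeR log2 fold change 6.80, SE 0.70, adjusted p = 6.96e-04). With 14 and 4 parental reads, MAOA met the expression filter only through its clone libraries. Its call as higher, and the count of 1 that rose, are therefore not independent of that filter. SLC22A5, the carnitine transporter, was at 29.4 and 54.6 CPM in PEO1 libraries against 6.07 to 12.7 CPM in clone libraries (edgeR log2 fold change -2.14, SE 0.29, adjusted p = 0.00235). Of 22 alcohol dehydrogenases and carbonyl reductases 13 were tested, and 1 fell, AKR1B10, a reductase of retinaldehyde and lipid aldehydes, at 1.14 and 6.35 CPM in PEO1 libraries against 0.127 to 1.59 CPM in clone libraries (edgeR log2 fold change -2.86, SE 0.75, adjusted p = 0.0338). The 1 of 13 (7.69%) compares with 16% of all tested genes. The block gave 3 higher, AKR1C3 (edgeR adjusted p = 0.00595), ESD (0.0138) and AKR7A2 (0.0145), and 1 lower, AKR1B10. The AKR1B10 groups overlapped, the call was lost in 7 of 14 alternatives, and the log2 fold change was -1.18 without PEO1 replicate 2. Of 10 genes of fatty aldehyde and sphingosine 1-phosphate metabolism, which feed ALDH3A2, all 10 were tested and 0 passed with edgeR, while DESeq2 called 1 and limma-voom 0. An unadjusted edgeR p under 0.05 was seen for 1 of them, again without the share of all tested genes at that threshold. With the replicate block 3 were lower, SGPL1, SPHK1 and TMEM189, against 34.6% of all tested genes. The median log2 fold changes of these 3 lists were -0.64, 0.59 and -0.25.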

How the data were processed

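The submitters' processing notes name TopHat2 2.0.14, the genome build hg19 and featureCounts 1.4.6 of Subread, and the raw counts per gene deposited by the authors were used as given. The kit for polyadenylated RNA keeps no strand, per the labels' protocols, and the settings for strand and multiply mapped reads are not given in the sources used here. The design text names 15 samples in 3 experiments, and 10 libraries are analysed here. The descriptions number the clones differently from the titles, and the titles were followed.

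Quasi-likelihood tests of edgeR 4.0.16 (R 4.3.3) were fitted to all 10 libraries with TMM factors, the edgeR expression filter, a mean per group and Benjamini-Hochberg adjustment over the 16490 tested genes (threshold 0.05). CPM used TMM-scaled library sizes and RPKM the exon length in the table. Folds against 0 reads were set against 3 counts per group. Errors of log2 fold changes are SEs from the fit. Alternatives were the replicate number as a block, DESeq2 1.42.0, limma-voom (limma 3.58.1), no filter, the compared groups alone and each library left out. Deviations of libraries with the same replicate number, a number taken from the titles, correlated at 0.28 to 0.731 over the 10 group pairs, all above the limit of 0.1, and for members and gene lists blocked values stand beside the calls and counts they changed. In simulated data the mean comparison recovered 5 of 50 changes of 2-fold, 30 of 50 of 4-fold and 47 of 50 of 8-fold. Few genes were changed in the simulation, which held no effect of the replicate number and gave 135 calls against 2631 in the data. Its adjusted threshold was therefore stricter than that of the data, and these rates do not carry over. A gene that did not pass is not shown to be unchanged. No pair of replicate libraries agreed within sampling noise.

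The members, the 5 gene lists (other aldehyde dehydrogenases, retinoid pathway, alcohol dehydrogenases and carbonyl reductases, amine oxidases and carnitine synthesis, fatty aldehyde and sphingosine 1-phosphate) and the cell type markers were chosen with earlier results of these data known. The rule for named genes took the 10 members, up to 4 genes per list that passed in the mean comparison with the smallest p, and the 3 genes most like each of the 3 members with the highest RPKM. A gene that this rule names for ALDH1B1 is not reported here.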

Additional observations from a re-analysis of the deposited data

How the results depend on the processing

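With the replicate block the number of members that passed went from 2 to 5 in the mean of the clones, from 1 to 5 in ABTr1, from 1 to 3 in ABTr2, from 1 to 2 in ABTr3 and from 1 to 5 in ABTr4, and DESeq2 gave 2 in ABTr2, 2 in ABTr3 and 3 in ABTr4. Leaving out 1 library gave 1 to 2 members in the mean (not the same members throughout, since ALDH3A2 passed without PEO1 replicate 1 and ALDH2 without PEO1 replicate 2), 1 to 2 in ABTr1, 1 to 1 in ABTr2, 0 to 1 in ABTr3 and 1 to 2 in ABTr4, and the tests between clones gave 0 members in all 15 alternatives of each. Over the whole table the 2631 genes called in the mean became 5699 with the block, 4072 with DESeq2 and 919 without PEO1 replicate 2. The counts ran from 221 to 4956 in ABTr1 (1611 as reported), 103 to 3640 in ABTr2 (1008), 84 to 3722 in ABTr3 (1216) and 438 to 4450 in ABTr4 (1602), and among the clones from 0 to 285 (1). Each clone against the other 3 gave 0 to 489 (2) for ABTr1, 0 to 18 (0) for ABTr2, 0 to 75 (0) for ABTr3 and 0 to 158 (0) for ABTr4. In the mean, listed genes passing ran from 0 to 3 for other aldehyde dehydrogenases (2), 1 to 11 for the retinoid pathway (4), 0 to 4 for alcohol dehydrogenases and carbonyl reductases (1), 2 to 4 for amine oxidases and carnitine synthesis (2) and 0 to 3 for fatty aldehydes (0).

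The log2 fold change turned its sign in 15 of the member values, of which 11 were of ALDH3B1, 3 of ALDH1B1 and 1 of ALDH9A1, none of them past the threshold. With 1 library left out, ALDH1B1 ran from -1.13 to 0.039 in the mean, -1.01 to 0.16 in ABTr2 and -1.01 to 0.15 in ABTr3, each turning without PEO1 replicate 1, and ALDH9A1 ran from -0.13 (without PEO1 replicate 2) to 0.42 in ABTr1. ALDH3B1 ran from -0.32 (without PEO1 replicate 1) to 1.61 in the mean, -0.053 (without ABTr2 replicate 2) to 1.91 in ABTr2, -0.67 (without PEO1 replicate 1) to 1.27 in ABTr3 and -0.78 to 1.19 (without PEO1 replicate 2) in ABTr4. It also turned to -0.0010 in ABTr2 without PEO1 replicate 1, -0.64 in ABTr3 without ABTr3 replicate 2 and 0.44 in ABTr4 without ABTr4 replicate 1. In ABTr3 ALDH3B1 was at -0.010 with DESeq2 and -0.017 with no filter, and in ABTr4 at 0.082 with the replicate block and 0.18 with limma-voom. The cause was not tested. With 2 libraries per group, leaving out 1 leaves a lone sample that is assumed to vary like the other groups. Depth limits ALDH1A1, ALDH1A2 and ALDH3A1, whose counts did not exceed 31 reads in any library.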

Other observations

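ALDH3B2 lies in a gene-dense stretch of chromosome 11, and some of its neighbours were lower in the clones as well. Within 500 kb on either side 32 other genes were tested, of which 0 rose and 6 fell in the mean of the clones (edgeR adjusted p under 0.05), with a median log2 fold change of -0.37. Over all tested genes 8.79% passed as lower. The 6 were SSH3, CLCF1, PITPNM1, GSTP1, NDUFV1 and SUV420H1. CLCF1, a cytokine gene of the interleukin 6 family, fell from 74.3 to 20.4 CPM (edgeR log2 fold change -1.89, SE 0.19, adjusted p = 5.73e-04). GSTP1, a glutathione transferase that conjugates electrophiles, fell from 610.2 to 340.3 CPM (edgeR log2 fold change -0.85, SE 0.18, adjusted p = 0.0156). NDUFV1, a subunit of respiratory complex I, fell from 206 to 124 CPM (edgeR log2 fold change -0.73, SE 0.16, adjusted p = 0.0179). ALDH3B1, inside the same window, did not pass (0.37). Around ALDH1A3, 8 neighbours were tested and 0 passed with edgeR in the mean, and around ALDH2 2 of 13 rose, SH2B3 and FAM109A. Windows of ALDH3B2 and ALDH3B1 overlap, and these neighbours were looked at after the values were seen.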
